A study of Mus musculus with 8 samples.

Results

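The genes described here encode the subunits of the oxidative phosphorylation machinery, as measured in Ly6Chigh monocytes sorted from mouse spleen. Members were chosen by gene name: Nduf genes of the a, b, c, s and v families, Sdha to Sdhd, Uqcr genes, Cox4 to Cox8 genes, Atp5 genes, and the mitochondrially encoded mt-Nd, mt-Co, mt-Cytb and mt-Atp genes. Of 118 matching rows, 14 with pseudogene or gene-model names were left out. The remaining 104 of the 56748 rows in the table were 91 nuclear and 13 mitochondrial genes. Ly6Chigh monocytes are the classical inflammatory monocytes of the mouse. The 4 WT libraries came from wild-type animals and the 4 KO libraries from animals lacking Olfr2, an olfactory receptor gene, all at day 7 after induction of an aneurysm. No age, strain, mode of induction or untreated group is given in the labels. Separate animals per library are not stated either, and p-values here therefore refer only to the spread among libraries. The column numbers in the count table fall into a 1600 series (WT 1, WT 2, KO 1 and KO 2) and a 1700 series (WT 3, WT 4, KO 3 and KO 4), and the labels do not state what these numbers mean.

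Oxidative phosphorylation takes place in the inner mitochondrial membrane. Complex I (NADH dehydrogenase) and complex II (succinate dehydrogenase) pass electrons to ubiquinone, complex III hands them to cytochrome c, and complex IV (cytochrome c oxidase) reduces oxygen. The proton gradient built by complexes I, III and IV drives complex V, the ATP synthase. Most subunits are encoded in the nucleus and imported, while a small core of complexes I, III, IV and V is made from the mitochondrial genome, and complex II is wholly nuclear. Inflammatory activation of monocytes and macrophages is known to shift their use of glycolysis and respiration.

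Total counts lay between 16111725 and 21728794 per library, and 11222 genes passed the filter on low counts. All 10 marker genes of Ly6Chigh monocytes were detected, with a summed level of 121438 to 144179 CPM (counts scaled to library size, with TMM factors between libraries) in WT and 144283 to 186326 CPM in KO libraries. Olfr2 had 0 counts in all 8 libraries, so that its own message could not check the genotype labels. Markers of neutrophils and their precursors (12 of 12 detected) summed to 285 to 600 CPM in WT and 621 to 3461 CPM in KO libraries. The 8 markers of cycling cells summed to 17.1 to 104 CPM in WT and 75.0 to 533 CPM in KO libraries. KO 1 and KO 2, both in the 1600 series, had the highest neutrophil sums, at 2252 and 3461 CPM. S100a8 and S100a9 together made up most of the sum in KO 1 and KO 2, and Mmp8 most of it in every other library. Dendritic cell markers (9 of 10 detected, Siglech at 0) summed to 2048 to 2564 CPM in WT and 496 to 2000 CPM in KO libraries, lowest in KO 2. H2-Ab1 made up most of this sum in every library. Nonclassical monocyte markers (8 of 8 detected) summed to 282 to 356 CPM in WT and 185 to 263 CPM in KO libraries. B cell markers ranged from 181 to 372 CPM with Pax5 at 0, and T and NK cell markers from 1.13 to 4.12 CPM with Ncr1 at 0. Erythroid markers (7 of 7 detected) ranged from 4.16 to 26.6 CPM, and splenic macrophage markers (8 of 8 detected) from 484 to 692 CPM. In these sorted but bulk samples a smaller number of cells of a type and less RNA per cell cannot be told apart.

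Nearly the whole nuclear set was expressed. The filter kept 82 of the 91 nuclear members, and 7 of the other 9 had 0 counts in every library. By annotation 4 members that fit the name rule are processed pseudogenes (Ndufa11b, Ndufb4c, Ndufs6b and Cox6c2). Over 50% of the 100-base windows of 4 nuclear members also occur in other annotated transcripts (Ndufb4c, Atp5g2, Atp5l and an unexpressed second entry for Atp5o), and 57 share none. Levels between genes are given in TPM (counts divided by transcript length and scaled to the same total in each library). In total the nuclear members made up 3.64% to 4.54% of TPM per library. Cox4i1, a regulatory subunit of complex IV, was the highest nuclear member at 1937 ± 224 TPM (SD, n = 8 libraries). Cox6b1, another complex IV subunit, followed at 1614 ± 160 TPM. The highest members of the other complexes were Ndufa1 (complex I) at 1394 ± 145 TPM, Uqcrb (complex III) at 1282 ± 136 TPM, Atp5c1 (the gamma subunit of complex V) at 1197 ± 81.3 TPM and Sdhd (complex II) at 666 ± 49.9 TPM. Median levels over all nuclear members tested were 330 TPM for complex I (38 genes), 380 for complex II (4), 634 for complex III (8), 448 for complex IV (15) and 627 for complex V (17).

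Subunits of one complex were far from equal in message level. In complex II, the membrane anchor Sdhd (666 ± 49.9 TPM) and the iron-sulfur subunit Sdhb (617 ± 43.4 TPM) lay above the other anchor, Sdhc (144 ± 14.4 TPM), and the flavoprotein Sdha (93.0 ± 14.2 TPM), and the ranges of these upper and lower pairs did not overlap over the 8 libraries. Sdhb (557 to 667 TPM) and Sdhd (597 to 758 TPM) overlapped, whereas Sdha (78.8 to 121 TPM) stayed below Sdhc (123 to 160 TPM). Among the 3 genes for the membrane ring subunit c of ATP synthase, Atp5g3 (627 ± 56.6 TPM) exceeded Atp5g2 (183 ± 24.5 TPM) and Atp5g1 (94.5 ± 10.2 TPM). Atp5g2 shares 86.4% of its 100-base windows with other annotated genes, so its count is uncertain. These copies, Gm10175 and Gm10231, had few counts, 24 to 34 and 6 to 21 per library. Atp5g1 shares 285 of 4616 windows with Gm10039, which had 978 to 1390 counts per library, so the count of Atp5g1 is uncertain too. The annotated transcripts of Atp5g1 differ widely in length. Its longest one holds 4616 windows of 100 bases, whereas no tested complex V member had a median length over 2675.5 bases. The TPM of Atp5g1, and with it the order of Atp5g1 and Atp5g2, therefore depends on the length taken.

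Complex IV has alternative isoforms that are typical of muscle, testis or hypoxic lung, and these were nearly silent here. Cox4i2, the isoform known from lung and hypoxia, had 2 counts in WT 3, 1 each in KO 3 and KO 4 and 0 in the other libraries, against 19487 to 26099 counts for Cox4i1. Cox6a2, the heart and muscle isoform, had 0 to 5 counts per library, against 9394 to 12329 for Cox6a1. Cox7a1, another muscle isoform, reached 2.89 ± 0.558 TPM, against 661 ± 83.8 TPM for Cox7a2 and 286 ± 10.3 TPM for Cox7a2l, which takes part in supercomplex assembly. Cox8b, Cox8c and Ndufa4l2, a hypoxia-inducible relative of Ndufa4, had 0 counts in all libraries. With 0 counts, a level of up to 0.138 CPM (KO 4) to 0.186 CPM (WT 4) remains possible from counting error alone. The testis isoform Cox6b2 was the exception, with 160 to 291 counts in all 8 libraries and 32.0 ± 5.89 TPM, still far below Cox6b1.

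Nuclear respiratory genes are known targets of the factors NRF1, GABPA (an ETS factor) and YY1, so their promoters were read for the core letters of each motif. RefSeq promoters on GRCm38.p6, from 250 bases before to 50 after the start, were found for 69 of the nuclear members (74 promoters). The NRF1 letters GCGCATGCG, on either strand, were in 8 of the 74 (10.8%), against 1.75% of all 32851 promoters and 3.92% of the 10465 promoters of tested genes. The ETS letters CCGGAAGT were in 5 (6.76%), against 3.89% and 9.17%, and the YY1 letters AAGATGGC in 10 (13.5%), against 2.75% and 4.95%. Any of the 3 was in 22 promoters (29.7%), against 7.96% and 17%. Relative to tested genes, the shares for NRF1 and YY1 were thus the higher ones and that for ETS was not, and a match in letters does not show binding. The following 4 are shown as examples of the matches, set in capitals. Uqcr11, Ndufc1 and Cox8a return in the results below, and Cox6a1 was named above among the isoforms. They are from GRCm38.p6, 5′ to 3′ on the gene's strand.
Uqcr11 (chr10:80406772-80407071, minus strand): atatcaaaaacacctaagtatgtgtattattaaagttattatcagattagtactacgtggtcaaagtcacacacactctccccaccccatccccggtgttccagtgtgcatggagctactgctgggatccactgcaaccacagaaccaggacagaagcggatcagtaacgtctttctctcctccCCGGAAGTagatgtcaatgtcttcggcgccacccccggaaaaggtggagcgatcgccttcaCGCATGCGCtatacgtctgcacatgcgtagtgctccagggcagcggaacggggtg
Ndufc1 (chr3:51408906-51409205, minus strand): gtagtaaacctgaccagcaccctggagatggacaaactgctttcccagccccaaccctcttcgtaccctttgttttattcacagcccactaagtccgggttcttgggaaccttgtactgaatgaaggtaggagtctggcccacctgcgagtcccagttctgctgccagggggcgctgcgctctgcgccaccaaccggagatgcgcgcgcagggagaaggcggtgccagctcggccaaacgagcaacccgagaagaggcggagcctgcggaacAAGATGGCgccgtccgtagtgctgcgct
Cox6a1 (chr5:115348909-115349208, minus strand): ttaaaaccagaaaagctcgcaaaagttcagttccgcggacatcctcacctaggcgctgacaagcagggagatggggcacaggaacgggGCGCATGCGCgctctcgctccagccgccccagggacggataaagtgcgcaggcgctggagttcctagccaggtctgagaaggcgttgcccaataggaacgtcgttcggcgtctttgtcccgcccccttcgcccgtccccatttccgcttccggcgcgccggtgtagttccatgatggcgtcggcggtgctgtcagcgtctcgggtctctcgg
Cox8a (chr19:7217567-7217866, minus strand): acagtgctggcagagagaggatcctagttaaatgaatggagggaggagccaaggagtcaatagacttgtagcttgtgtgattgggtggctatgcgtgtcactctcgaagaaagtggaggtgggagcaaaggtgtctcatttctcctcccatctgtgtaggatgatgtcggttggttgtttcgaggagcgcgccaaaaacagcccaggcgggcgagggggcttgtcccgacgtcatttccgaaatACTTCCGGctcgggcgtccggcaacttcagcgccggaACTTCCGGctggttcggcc
In Uqcr11 the capitals mark an ETS match followed by an NRF1 match on the opposite strand. In Ndufc1 they mark a YY1 match just past the start. Cox6a1 holds a palindrome in which the NRF1 letters are read on both strands, and Cox8a holds a pair of ETS matches, both on the opposite strand.

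The 13 mitochondrial members made up 0.393% to 0.527% of TPM per library, and 12 of them passed the filter. All lie on chromosome M of GRCm38. mt-Co1, the catalytic subunit of complex IV (5328 to 6872, plus strand), was the highest of all 104 members at 2187 ± 248 TPM (SD, n = 8). It took 50.6% to 61.5% of the mitochondrial counts. mt-Cytb, the cytochrome b of complex III (14145 to 15288, plus strand), reached 1066 ± 167 TPM and mt-Nd1 of complex I (2751 to 3707, plus strand) 812 ± 101 TPM. The remaining genes were much lower: mt-Nd4 at 118 ± 24 TPM, mt-Nd2 at 75.9 ± 18.4, mt-Co3 at 62.6 ± 16, mt-Nd3 at 36.5 ± 4.83, mt-Nd5 at 24.9 ± 6.43, mt-Atp6 at 18.6 ± 5.56, mt-Co2 at 17.2 ± 4.02, mt-Nd6 (the one on the minus strand) at 13.6 ± 3.84 and mt-Atp8 at 7.98 ± 2.76 TPM. mt-Nd4l had 1 to 10 counts per library and was not tested.

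Of these messages, several cannot be told apart by sequence from copies of mitochondrial DNA that lie in the nuclear genome. In 100-base windows, 99.9% of mt-Co3, 99.5% of mt-Co2, 99.5% of mt-Atp6, 98.5% of mt-Nd4l and 97.6% of mt-Nd3 also occur in another annotated transcript, as do 60.8% of mt-Nd4 and 30.8% of mt-Co1. No 100-base window of mt-Nd1, mt-Nd5, mt-Nd6, mt-Cytb or mt-Atp8 is shared. In 50-base windows 7.61% of mt-Nd5 and 51.1% of mt-Co1 are shared, and still none of mt-Nd1, mt-Nd6, mt-Cytb or mt-Atp8. The end of mt-Atp8 (7766 to 7969) does overlap the start of mt-Atp6 (7927 to 8607) on the same strand, over a stretch shorter than a window. Most of the copies lie side by side on chromosome 1 of GRCm38, between 24611535 and 24616197. The first 60 bases of 4 messages show the contrast, all from GENCODE M21 on the plus strand of chromosome M, with no part in capitals. Those of mt-Co2 and mt-Co3 occur letter for letter in the chromosome 1 copies Gm28661 and Gm28437, and those of mt-Cytb and mt-Nd1 are held by no other annotated transcript.
mt-Co2: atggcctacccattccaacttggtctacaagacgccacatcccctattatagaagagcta
mt-Co3: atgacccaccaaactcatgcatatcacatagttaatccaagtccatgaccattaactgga
mt-Cytb: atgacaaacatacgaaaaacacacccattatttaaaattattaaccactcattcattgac
mt-Nd1: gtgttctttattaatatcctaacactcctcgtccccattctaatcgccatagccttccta

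For mt-Co2, mt-Atp6 and mt-Co3 the copy had counts of the same order as the gene. In WT 1 to 4 mt-Co2 had 227, 125, 132 and 157 counts, and in KO 1 to 4 it had 139, 199, 243 and 206. Its copy Gm28661 (chromosome 1, 24614885 to 24615565) had 224, 136, 139 and 189, then 116, 214, 238 and 196 counts. mt-Co2 thus held 45.4% to 54.5% of the pair's counts, an almost even split in every library. mt-Atp6 held 32.4% to 38.8% of the counts it shared with Gm10925 (chromosome 1, 24613974 to 24614651). Some copies were far lower: Gm29216 had 445 to 1036 counts, against 46273 to 57038 for mt-Co1, Gm28439 had 14 in WT 1, against 3199 for mt-Nd4, and Gm28438 had 10 to 37, against 161 to 213 for mt-Nd3. How reads with several matches were counted is not given in the sources used here. The levels of mt-Co2, mt-Co3, mt-Atp6, mt-Nd3, mt-Nd4 and mt-Nd4l are therefore uncertain, and in part that of mt-Co1. That of mt-Atp8 is uncertain too, because of its overlap with mt-Atp6.

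**Figure D1:**
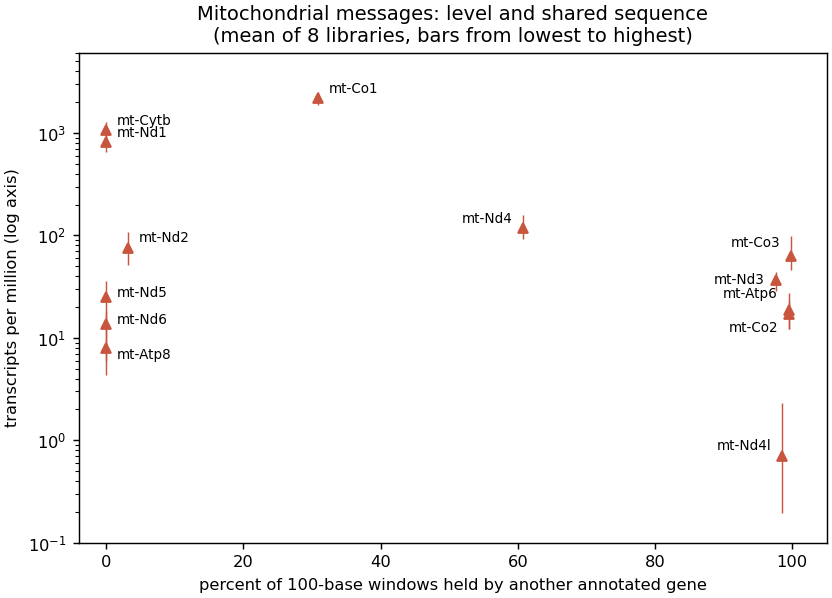
Level of each mitochondrial member in TPM (log axis, mean of 8 libraries, bars from the lowest to the highest library) against the percent of its 100-base windows that another annotated gene also holds. mt-Cytb and mt-Nd1, with no shared window, lie at 1066 and 812 TPM, whereas the 5 genes with over 90% shared windows lie at 62.6 TPM or below, as do mt-Nd5, mt-Nd6 and mt-Atp8, which share none of this length.

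mt-Co3 shares nearly all of its sequence with the copy Gm28437, and how their common reads were divided is not known. mt-Co3 was at 37.7, 30.2, 31.1 and 37.6 CPM in WT 1 to 4 and at 41.2, 69.8, 37.8 and 35.3 CPM in KO 1 to 4, with KO 4 inside the WT range and KO 2 far above all others. Fitted over all libraries, its difference was 0.43 ± 0.20 on the log2 scale (SE; edgeR quasi-likelihood test, Benjamini-Hochberg adjusted p = 0.244). Counts assigned to Gm28437 (chromosome 1, 24613189 to 24613971) were at 49.0, 37.2, 40.0 and 40.6 CPM in WT and at 98.5, 108, 68.0 and 55.6 CPM in KO libraries. Every KO library lay above every WT library, and the log2 change was 0.98 ± 0.19 (SE; edgeR adjusted p = 0.0387). mt-Co3 held 43.5% to 48.1% of the pair's counts in WT and 29.5% to 39.2% in KO libraries, without overlap. Summed over the pair, the level was 86.7, 67.3, 71.2 and 78.3 CPM in WT and 140, 178, 106 and 90.9 CPM in KO libraries, also without overlap, and the sum was not tested. Gm28437 was looked up after the member values had been seen. The log2 change of Gm28437 lay between 0.83 and 1.12 when any 1 library was left out, with edgeR adjusted p from 0.0117 to 0.161 and above 0.05 without WT 1, WT 3, WT 4, KO 1, KO 2 or KO 3. With length and GC offsets, described below, it was 0.68 ± 0.18 (edgeR adjusted p = 0.118), and limma-voom gave an adjusted p of 0.0857.

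As a share of all counts, oxidative phosphorylation genes did not separate the genotypes. The nuclear members took 2.51%, 2.40%, 2.87% and 2.55% of counts in the WT libraries 1 to 4, and 2.80%, 2.89%, 2.42% and 2.30% in the KO libraries 1 to 4. The means were 2.58% ± 0.203 in WT and 2.602% ± 0.285 in KO libraries (SD, n = 4 each), and the ranges overlapped. Counting error was small beside this spread, since the 95% Wilson interval of WT 1 ran from 2.50094% to 2.51524% (PCR reads are not independent molecules, so that it covers counting error only). Sorted by number series, both KO libraries lay above both WT libraries in the 1600 series (means 2.84% and 2.45%) and below them in the 1700 series (2.36% and 2.71%). The mitochondrial members took 0.541%, 0.424%, 0.428% and 0.486% in WT and 0.438%, 0.526%, 0.451% and 0.432% in KO libraries. Their means were 0.470% ± 0.055 and 0.462% ± 0.044 (SD, n = 4 each). Here the genotypes overlapped in the 1600 series, and in the 1700 series WT 3 lay below and WT 4 above both KO libraries.

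**Figure D2:**
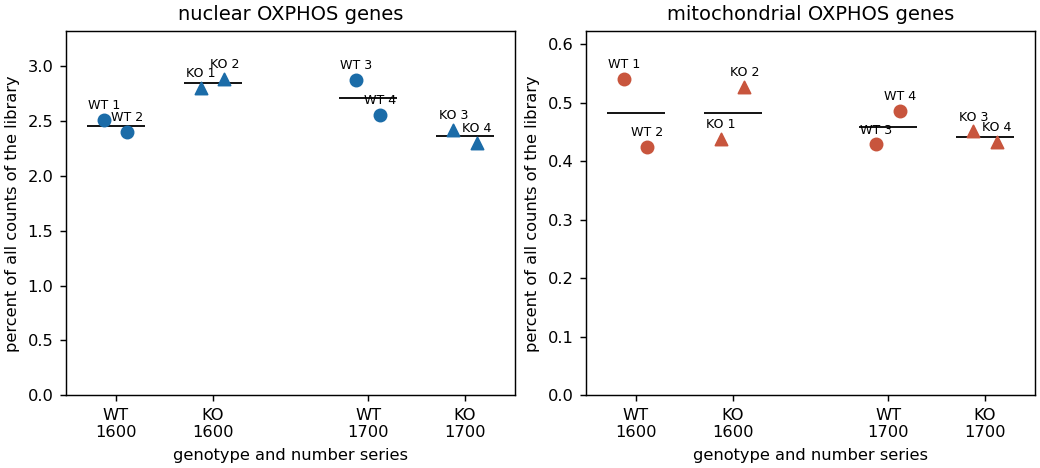
Percent of each library's counts on nuclear (left) and mitochondrial (right) oxidative phosphorylation genes, by genotype and number series, with 1 point per library and a line at the mean of each pair. In the nuclear panel KO lies above WT in the 1600 series (2.84% against 2.45%) and below it in the 1700 series (2.36% against 2.71%), and the mitochondrial panel shows no such crossing.

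Gene by gene, no oxidative phosphorylation subunit passed the test of KO against WT. Across all tested genes edgeR called 1.06% at an adjusted p under 0.05, and it called 0 of the 82 nuclear and 0 of the 12 mitochondrial members. At an unadjusted p under 0.05 there were 9 nuclear members (11%) and 0 mitochondrial ones, against 20.9% of all genes. DESeq2 called 784 of all genes (6.99%) and 0 members. limma-voom called 0 of all genes, so that its 0 says nothing about the members. The median log2 change was 0.07 for nuclear members (56 positive, 26 negative) and 0.15 for mitochondrial members (9 positive, 3 negative), beside 0.00 for all genes. With libraries scaled by total counts alone the nuclear median was 0.00, with 41 positive and 41 negative, and that of all genes -0.08. The medians of the complexes were 0.04 (I), 0.05 (II), 0.01 (III), 0.04 (IV) and 0.19 (V).

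The members with the smallest p in each complex show how these values looked. Ndufs7 (GRCm38 chromosome 10, 80249121 to 80256794, plus strand), a subunit that carries an iron-sulfur cluster near the ubiquinone site of complex I, was at 224, 204, 266 and 220 CPM in WT 1 to 4 and at 223, 150, 131 and 145 CPM in KO 1 to 4. KO 1 was as high as the WT libraries, and the other 3 KO libraries were below all of them. Its log2 change was -0.50 ± 0.16 (SE; edgeR adjusted p = 0.116). Cox8a, the ubiquitous isoform of the smallest complex IV subunits, was at 438, 496, 622 and 551 CPM in WT and at 481, 438, 359 and 335 CPM in KO libraries. KO 3 and KO 4 lay below all WT libraries while KO 1 did not, and the log2 change was -0.38 ± 0.15 (SE; edgeR adjusted p = 0.160).

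In complex V the lowest p belonged to Atp5j (chromosome 16, 84827866 to 84835625, minus strand), a coupling factor in the stalk of ATP synthase. It was at 460, 424, 469 and 513 CPM in WT and at 635, 868, 533 and 522 CPM in KO libraries. All KO libraries lay above all WT libraries, KO 3 and KO 4 only just, and the log2 change was 0.46 ± 0.16 (SE; edgeR adjusted p = 0.130). Uqcrc2 (chromosome 7, 120635176 to 120659524, plus strand), a core protein of complex III, was at 206, 214, 176 and 198 CPM in WT and at 239, 264, 226 and 240 CPM in KO libraries. The groups did not overlap, and the log2 change was 0.29 ± 0.11 (SE; edgeR adjusted p = 0.165). In complex II the smallest p was that of Sdhb (0.17 ± 0.11 on the log2 scale, SE; edgeR adjusted p = 0.419). Without overlap between the genotypes were 5 nuclear members, all higher in KO (Ndufa10, Ndufb3, Uqcrc2, Atp5j and Atp5pb), and no mitochondrial one. Over all genes 5.35% had every KO above every WT library and 6.06% every KO below, so that 5 of 82 is near the background. Atp5j overlaps its neighbour Gabpa (163 to 357 counts per library) over 3.52% of its windows, so a small part of its count is uncertain.

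**Figure D3:**
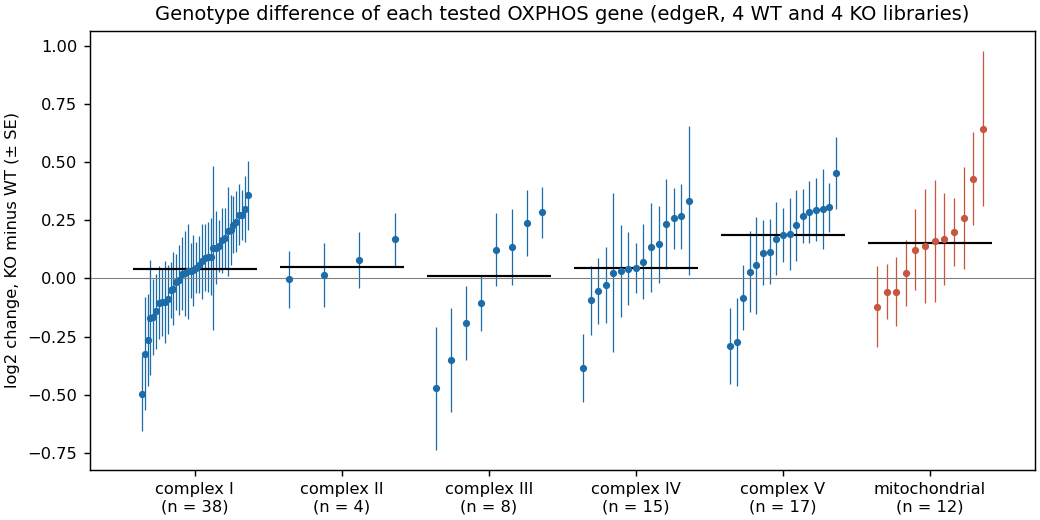
Log2 change, KO minus WT, of each tested member with its SE, sorted within each complex, with a black line at the median of the group. Nuclear medians lie between 0.01 (complex III) and 0.19 (complex V), the mitochondrial one at 0.15, and values run from -0.50 (Ndufs7) to 0.65 (mt-Atp8).

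Within the number series the nuclear members went in opposite directions. In the 1600 series alone (2 WT against 2 KO libraries) 79 of 82 had a positive log2 change, with a median of 0.38, and the 3 others were Ndufs7, Sdha and Cox8a. The median of all genes was -0.04, and edgeR called 0.873% of all genes and 0 members (46 of 82 nuclear members had an unadjusted p under 0.05, against 18.8% of all genes). In the 1700 series alone 66 of 82 were negative, with a median of -0.27 beside -0.01 for all genes, and 33 had an unadjusted p under 0.05, against 22.2% of all genes. There edgeR called 1.16% of all genes, 0.981% as lower, and 2 nuclear members, both lower in KO: Uqcrq (log2 change -1.19 ± 0.16, SE, adjusted p = 0.0309) and Uqcr11 (-0.96 ± 0.18, adjusted p = 0.0482), small subunits of complex III. Higher in KO in the 1600 series and lower in the 1700 series were 64 of the 82 (78.0%), against 19.2% of the 11067 genes tested in both. Of the 12 mitochondrial members 2 had that pattern and 6 the opposite one.

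**Figure D4:**
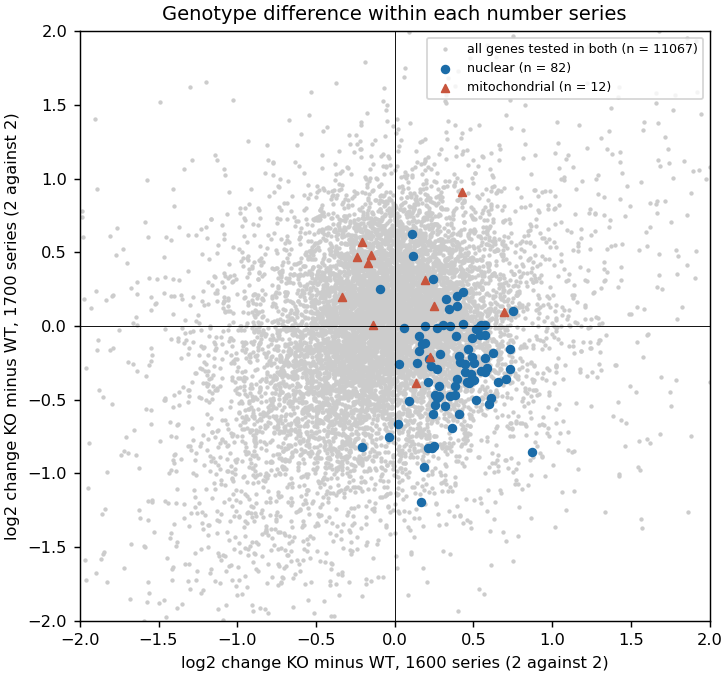
Log2 change, KO minus WT, in the 1600 series (horizontal) and the 1700 series (vertical), for nuclear members (circles), mitochondrial members (triangles) and all genes tested in both (grey, values beyond 2 not drawn). Most nuclear members, 64 of 82, lie at the lower right, where 19.2% of all genes lie.

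A test of the difference between the series (genotype by series interaction, 1700 minus 1600, edgeR) called 0.784% of all genes, 0.472% in the negative direction. It called 5 of the 82 nuclear members, all negative, and 0 of the 12 mitochondrial ones. At an unadjusted p under 0.05 there were 60 of the 82 (73.2%) and 1 of the 12, against 16.1% of all genes. The median log2 difference was -0.70 for nuclear members, of which 78 were negative, and 0.29 for mitochondrial members, beside 0.01 for all genes. Nuclear complexes I, III, IV and V had medians of -0.73, -0.74, -0.77 and -0.66, while complex II was at -0.32, with 0 of 4 at an unadjusted p under 0.05. The 4 positive nuclear members were Ndufa10, Ndufs1, Sdha and Uqcrc2.

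Of the 5 called members, 3 are accessory subunits of complex I. Ndufb11 (chromosome X, 20615326 to 20617619, minus strand), a membrane-arm subunit, was at 257, 239, 364 and 298 CPM in WT 1 to 4 and at 381, 437, 265 and 249 CPM in KO 1 to 4. Both KO libraries exceeded both WT libraries in the 1600 series and both lay below them in the 1700 series. The log2 difference between the series was -1.08 ± 0.20 (SE; edgeR adjusted p = 0.040).
Ndufa2, of the matrix arm, was at 269, 253, 430 and 351 CPM in WT and at 332, 368, 264 and 252 CPM in KO libraries, and crossed in the same way. Its log2 difference was -1.02 ± 0.20 (SE; edgeR adjusted p = 0.0436). Ndufc1 (chromosome 3, 51404677 to 51408988, minus strand), whose promoter with the YY1 letters is given above, was at 117, 99, 162 and 136 CPM in WT and at 159, 153, 111 and 99.1 CPM in KO libraries. It crossed too, with a log2 difference of -1.03 ± 0.21 (SE; edgeR adjusted p = 0.0493).

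The other two belong to complexes III and V. Uqcrq (chromosome 11, 53427922 to 53430831, minus strand), the ubiquinone-binding small subunit of complex III, was at 276, 224, 395 and 330 CPM in WT and at 337, 229, 168 and 149 CPM in KO libraries. In the 1700 series KO was far below WT, while in the 1600 series KO 2 lay between the WT libraries. Its log2 difference was -1.37 ± 0.27 (SE; edgeR adjusted p = 0.0493). Atp5e (chromosome 2, 174461072 to 174464105, minus strand), the epsilon subunit in the central stalk of ATP synthase, was at 217, 191, 333 and 259 CPM in WT and at 256, 233, 174 and 163 CPM in KO libraries. Both KO libraries were above WT in the 1600 series and below in the 1700 series, with a log2 difference of -1.08 ± 0.21 (SE; edgeR adjusted p = 0.0487). Uqcr11, whose promoter is printed above and which was looked up after its values were seen, had a log2 difference of -1.15 ± 0.26 (SE; edgeR adjusted p = 0.0646).

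When any 1 library was left out, the nuclear median stayed between -0.80 and -0.60 and 76 to 79 of the 82 were negative. The mitochondrial median ranged more widely, from -0.03 without WT 1 and 0.00 without KO 1 to 0.58 without WT 2. The count of nuclear calls was 41 without WT 4, where 5.51% of all genes were called, 1 without KO 2 (Uqcrq), where 0.0872% were, and 0 without any of the others. In those fits few genes of any kind were called: 0.211% without WT 1, 0.0437% without WT 2, 0.123% without WT 3, 0.331% without KO 1, 0.0349% without KO 3 and 0.0262% without KO 4. With so few calls over all genes, a count of 0 members is near the background. The call without KO 2 was 1 of 82, a share above that of all genes but resting on 1 gene. DESeq2 called 36 of 82, against 4.02% of all genes. With libraries scaled by total counts alone 0.25% of all genes and no member were called, and the nuclear median was -0.51 beside 0.20 for all genes. Markers of neutrophils and their precursors moved with the series as well, since KO 1 and KO 2 were at 2252 and 3461 CPM and KO 3 and KO 4 at 801 and 621 CPM. Dendritic cell markers moved the other way, at 820 and 496 CPM in KO 1 and KO 2 and at 1748 and 2000 CPM in KO 3 and KO 4. Of the 8 nonclassical monocyte markers, 6 had a positive log2 difference and 2 a negative one. Only the chemokine receptor Cx3cr1 was called among them (1.68 ± 0.27, SE; edgeR adjusted p = 0.0369). The neutrophil marker S100a9 was called as well (-3.86 ± 0.49, SE; edgeR adjusted p = 0.0369). Over all genes 0.784% were called. The part of these cell markers in the result was not tested.

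Over all genes the difference between the series varied with transcript length, and the part of length in the members' result was not tested. The median length of nuclear members was 725 bases, against 2349 bases for all tested genes. All tested genes were split by length into 10 bins of equal size. Over the shortest bin (66 to 787 bases) the median log2 difference was -0.55, with 34 genes called lower and 2 higher, and over bins 5 to 8 it was 0.15 to 0.26. It was 0.14 in bin 9 and -0.12 in the longest bin, so that there was no steady trend over all lengths. Within that shortest bin lay 48 nuclear members, all negative, with a median of -0.80. The 22 members of the next 2 bins had a median of -0.53, beside -0.18 for all genes there, and the 12 longer members -0.21, beside 0.14. Length here is the median over a gene's annotated transcripts, and which of these were expressed was not tested. Ndufb2, with a log2 difference of -1.14, was among the longer members at 2413 bases. Its longest transcript holds 4272 windows of 100 bases, so its place depends on the length taken. Across the 82 nuclear members the log2 difference was less negative for longer transcripts (Spearman rho 0.57, Pearson r 0.60), a description over genes that share the same 8 libraries. The positive members, Ndufa10, Ndufs1, Sdha and Uqcrc2, had transcripts of 1896 to 2900 bases.

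When each library was given an offset for length and GC content of the transcripts, the nuclear median shrank from -0.70 to -0.27, with 73 of 82 negative, beside 0.00 for all genes. edgeR then called 5 genes in all (0.0446%) and 0 members. By length, the members' medians were -0.31 in the shortest bin, -0.24 in the next 2 and -0.32 among the longer ones, beside -0.08, -0.01 and 0.01 for all genes of the same lengths. Both the bins and the offsets rest on the annotated lengths. Unlike the nuclear median, Ndufb2, one of the longer members, went from -1.14 to -1.42 with the offsets. The 5 members called before had log2 differences of -0.79 ± 0.17 (Ndufb11), -0.56 ± 0.17 (Ndufa2), -0.77 ± 0.20 (Ndufc1), -0.90 ± 0.28 (Uqcrq) and -0.48 ± 0.18 (Atp5e), with edgeR adjusted p from 0.127 to 0.303. Mitochondrial members, with a median length of 871 bases and a low GC content (36.5%, against 51.5% for nuclear members), had a median of 0.33 with the offsets and 0.29 without. In the comparison of all KO with all WT libraries the offsets took the mitochondrial median from 0.15 to -0.19 and the nuclear one from 0.07 to 0.03, again with 0 members called.

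**Figure D5:**
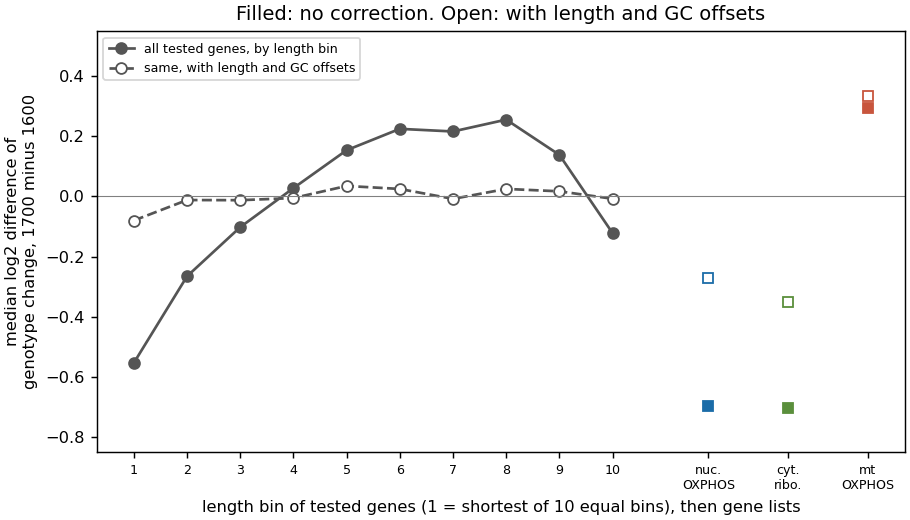
Median log2 difference of the genotype change between the series (1700 minus 1600) for 10 equal bins of all tested genes by transcript length, and for 3 gene lists, without correction (filled) and with length and GC offsets (open). The shortest bin lies at -0.55 and moves to -0.08 with the offsets, and nuclear members move from -0.70 to -0.27.

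Other genes of the pathway were read from lists, for which edgeR called 0 members in either direction in KO against WT, beside the 1.06% called over all genes. This held for assembly factors (45 tested genes, median log2 change 0.01) and transcription and upkeep of the mitochondrial genome (24 genes, 0.15). It held for nuclear regulators (6 genes, -0.11), the citric acid cycle with pyruvate dehydrogenase (17 genes, 0.24) and electron and ATP carriers (21 genes, 0.13). So it did for further subunits and related proteins (8 genes, -0.02), the mitochondrial ribosome (77 genes, 0.14) and the cytosolic ribosome (92 genes, 0.09). The list of further subunits also held Atp5md and Atp5mpl, which fit the name rule and are members already. That of the cytosolic ribosome was chosen by symbol alone (Rpl or Rps and a digit). It is not limited to ribosomal proteins, and its transcripts reached 5457.5 bases. At an unadjusted p under 0.05, which 20.9% of all genes reached, there were 10 of 45 assembly factors, 4 of 24 upkeep genes and 3 of 6 regulators. The others were 6 of 17 citric acid cycle genes, 5 of 21 carriers and 0 of 8 further subunits and related proteins. In the ribosome lists there were 16 of 77 mitochondrial and 11 of 92 cytosolic genes.

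The same lists were read for the difference between the series, where 0.472% of all genes were called lower. The cytosolic ribosome list, chosen by symbol as above, had a median transcript of 827 bases. Its median was -0.71, with 20 of 92 genes called lower. Further subunits and related proteins, of which Atp5md and Atp5mpl are members, had a median of -0.60. Of these 8 genes 1 was called, Romo1 (-1.41 ± 0.22, SE, edgeR adjusted p = 0.0369), a small inner-membrane protein. Assembly factors had a median of -0.28 with 1 of 45 called, Uqcc2 (-1.01 ± 0.20, SE, edgeR adjusted p = 0.0493), which acts in complex III assembly. The mitochondrial ribosome was at -0.34 and the carriers at -0.19, with 0 called in each. Median values were positive for the citric acid cycle (0.19), genome upkeep (0.09) and regulators (0.03), whose median transcripts were 2491.5, 2049 and 3138 bases long, and 0 of their genes were called. At an unadjusted p under 0.05, against 16.1% of all genes, stood 65 of 92 genes of the cytosolic and 25 of 77 of the mitochondrial ribosome list. So did 5 of 8 further subunits and related proteins, 11 of 45 assembly factors and 4 of 21 carriers. The remaining lists had 1 of 17 citric acid cycle genes, 3 of 24 upkeep genes and 0 of 6 regulators.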

How the data were processed

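RNA of Ly6Chigh monocytes from mouse spleen was primed with oligo-dT and amplified by template switching (SMART-Seq v4; source: the labels' protocols). A single table of gene counts, not normalized, was deposited by the authors. Per the submitters' processing notes, the tools were HISAT2 2.0.5 and featureCounts 1.5.0-p3 with genome build GRCm38. Settings for strand and multi-mapping reads, and the annotation release, were not given in the sources used here. Recovery can depend on transcript length and RNA quality after such priming and amplification, and reads of overlapping genes cannot be separated.

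Genotype, from the labels, gave the groups. The main test was the robust quasi-likelihood test of edgeR 4.0.16 in R 4.3.3, after filterByExpr and TMM scaling, with Benjamini-Hochberg adjustment over all 11222 tested genes at 0.05, for KO against WT and for the interaction with the number series. The tested genes held 99.9% of counts. Alternatives used DESeq2 1.42.0, limma-voom 3.58.1, other scalings and filters, a replicate block, single libraries left out, and offsets for length and GC content (mgcv 1.9.3). For the interaction, the offsets, total-count scaling and left-out libraries, and for KO against WT the fit without KO 1 and KO 2, were added after seeing the data. Scripts were tested on simulated data.

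TPM used the median length of basic GENCODE M21 transcripts; 52125 of 56748 identifiers were in that annotation and a length was known for 97.7% of tested genes. Window sharing was counted against all other GENCODE M21 transcripts. Members and lists were chosen with earlier results of these data known, and 6 of 391 list entries had no matching symbol. Genes named were members past a threshold, the smallest p and highest TPM per complex, all mitochondrial and Sdh genes, isoform sets, and up to 3 called genes per list, which gave 45 genes. Ndufa10, Ndufb3, Atp5pb, Ndufs1 and Uqcr11, and the nuclear copies of mitochondrial genes, were named after their values were seen.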

Additional observations from a re-analysis of the deposited data

Results flagged for a closer look

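In 3 of 100 groups of 4 libraries a member or ratio had 1 library set apart from the other 3 (Dixon's 95% criterion), where chance gives about 5. The nuclear counts per mitochondrial count were 6.39 in KO 1 and 5.32 to 5.48 in the other KO libraries. Atp5c1 was at 1165 CPM in WT 3 and at 1016 to 1037 CPM in the other WT libraries. mt-Co3 was at 69.8 CPM in KO 2 and at 35.3 to 41.2 CPM in the other KO libraries.

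The genotype difference itself differed between the number series by the interaction test (log2, 1700 minus 1600) for Ndufb11 (-1.08), Ndufa2 (-1.02), Uqcrq (-1.37), Atp5e (-1.08) and Ndufc1 (-1.03). With length and GC offsets the values were -0.79, -0.56, -0.90, -0.48 and -0.77, and none passed.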

How the results depend on the processing

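The count of all genes called in KO against WT, 119, was 244 with total counts alone, 742 without a filter on low counts, 784 with DESeq2, 0 with limma-voom, 251 with the number series as covariate, 1 with length and GC offsets, 611 at an adjusted p of 0.10, 7 in a fit that lacked both KO 1 and KO 2, and 0 to 515 when 1 library was left out. Without a filter the 0 nuclear calls became 2 of 84 (Atp5j and Ndufs7), beside 742 of all 21213 genes. In the 1700 series alone they became 2 of 82, beside 134 of 11521. With 1 library left out they ranged from 0 to 1 (Ndufs7 without KO 1, where 64 of 11490 genes were called). Mitochondrial calls were 0 in every alternative run. The nuclear median of 0.07 was 0.38 in the 1600 and -0.27 in the 1700 series alone, and 0.00 to 0.17 with 1 library left out. The mitochondrial median of 0.15 was -0.19 with the offsets, and 0.02 to 0.29 with 1 library left out. For the interaction, the 88 calls over all genes became 451 with DESeq2, 5 with the offsets, 28 with total counts alone and 3 to 628 with 1 library left out. With at least 1 CPM required in 4 libraries the 5 nuclear calls became 9 of 81, beside 101 of all 10146 genes. They became 36 with DESeq2, 0 with the offsets, 0 with total counts alone and 0 to 41 with 1 library left out. The causes were not tested.

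The same title numbers do not mark shared animals in the labels. Same-numbered libraries deviated together with r from -0.049 to 0.093, against -0.147 to 0.129 for different numbers. Such values cannot settle whether same-numbered libraries share more than a number. With the replicate block 244 genes and 0 members were called, and the mitochondrial median with block and offsets was -0.16. Of 880 values of 40 named genes in KO against WT, 732 kept their side of the threshold and moved by less than the spread, 143 moved further, 5 newly passed and 0 reversed. Of 520 interaction values, 419 did so, 40 moved further, 17 newly passed, 44 no longer passed and 0 reversed.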
